A study of Homo sapiens with 47 samples.

Results

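The RNA of DDC-overexpressing PC3 cells was compared directly with the RNA of SLC6A4-overexpressing PC3 cells, 3 libraries of each line, which are 6 of the 47 samples of the series. PC3 is an established human prostate cancer cell line. The DDC cells and the SLC6A4 cells were each transduced with a construct for the named gene, and the empty-vector cells with a control construct. All were kept in RPMI-1640 with fetal bovine serum, and no further treatment is labelled. The labels do not name the promoter of the constructs or say whether a line was a pool or a single clone. Libraries were made from oligo(dT)-selected RNA. Each line had been set against the empty vector in a table of its own, so whole reads were recovered from both tables, joined by gene identifier and scaled together. Of 62703 genes listed, 12960 reached 10 normalised reads in at least 3 of the 6 libraries and were tested. The 3 empty-vector libraries are given as levels beside the lines and took no part in the fit. The labels do not say whether the libraries of a line came from separate cultures, so the p-values measure only the spread between these libraries. In bulk RNA, fewer cells with a transcript and less of it per cell cannot be told apart.

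DDC is the aromatic L-amino acid decarboxylase, the enzyme that forms serotonin from 5-hydroxytryptophan and dopamine from L-DOPA. SLC6A4 is the plasma membrane transporter that carries serotonin into cells. The transglutaminase TGM2 can attach serotonin to a glutamine of histone H3 that stands next to the lysine carrying H3K4me3, which gives the double mark H3K4me3Q5ser. The comparison sets cells with an added enzyme of serotonin synthesis beside cells with an added route of serotonin uptake.

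The overexpressed genes separated the lines as labelled. DDC (chr7:50458436-50565405, GRCh38, minus strand) had 23, 25 and 31 reads in the DDC libraries, 3, 0 and 0 in the SLC6A4 libraries and 0, 0 and 1 in the empty-vector libraries. Per library total the DDC line had 27.4 times the DDC reads of the SLC6A4 line, with an exact 95% interval of 9.03 to 136 that covers counting error only. SLC6A4 (chr17:30194319-30236002, minus strand) had 1, 1 and 0 reads in the DDC libraries, 94, 120 and 130 in the SLC6A4 libraries and 0, 0 and 1 in the empty-vector libraries. The SLC6A4 line had 165 times the SLC6A4 reads of the DDC line (exact 95% interval 45.5 to 1372). The lines did not overlap in either gene.

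The 9 libraries held 17.3 to 21.7 M reads in genes, of which mitochondrial transcripts took 16.9% to 18.2%. Of 12 epithelial identity markers 9 passed the filter, and the summed level of the 12 was 20911 to 24526 normalised reads in DDC cells, 30629 to 31716 in SLC6A4 cells and 30839 to 36239 in empty-vector cells. The basal factor TP63 did not pass. The basal keratin KRT5 did not pass either, but it had 551 normalised reads in SLC6A4 replicate 1 and 314 in empty-vector replicate 2 and at most 2.20 in the other libraries. Of 22 markers of other cell types 3 passed, and the summed level of the 22 was 248 to 283 normalised reads in DDC cells, 180.3 to 221 in SLC6A4 cells and 409.7 to 959.6 in empty-vector cells, where HBB gave 530.2 in replicate 2. CLDN5, DCN, CD3E, MS4A1, ALB and INS were at 0 in all 9 libraries. PECAM1, an adhesion molecule of endothelium, had 87.2, 82.5 and 66.4 normalised reads in DDC cells, 34.4, 50.95 and 45.9 in SLC6A4 cells and 222, 234 and 210.4 in empty-vector cells (log2 0.84), while VWF and CDH5 were at 0 in the DDC libraries.

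The lines differed in 1658 of the 12960 genes tested, or 12.8%, at an adjusted p under 0.05 (limma on log2 of normalised reads + 1, Benjamini-Hochberg over all genes). Of these, 802 genes (6.19% of those tested) were higher and 856 (6.60%) lower in DDC than in SLC6A4 cells. Scaling by library total gave 525 higher and 1298 lower, so that 28.8% of the calls were higher in place of 48.4%. Without SLC6A4 replicate 2 there were 1040 calls and without SLC6A4 replicate 3 there were 1035. At least 2-fold differences were fewer, with 97 genes (0.748%) higher and 158 (1.22%) lower, 1.97% together. The median log2 fold change of all genes tested was -0.0037 and the median standard error 0.17, and the smallest difference called was 0.22 on the log2 scale. Of the genes tested, 11340 reached 10 normalised reads in all 6 libraries, 439 did so in all DDC but not all SLC6A4 libraries and 608 in all SLC6A4 but not all DDC libraries. Among the genes named below, CST6, CDH1, PRSS8, S100A14, AP1M2, BST2, CHRNA1 and ANKRD1 reached 10 only in SLC6A4 libraries. ZNHIT2 and ALDH2 did so only in DDC libraries, and DDC and SLC6A4 only in their own lines. Such genes passed the filter only through the line where they are high, so the filter itself favours their difference. The libraries of the lines did not overlap in 3800 genes, 29.3% of those tested. Protein-coding genes gave 710 higher and 746 lower calls of 10789, and long non-coding RNAs 69 higher and 84 lower of 1608. Counts of called members of each gene list below are to be read against 6.19% higher and 6.60% lower, and list medians against -0.0037.

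**Figure D1:**
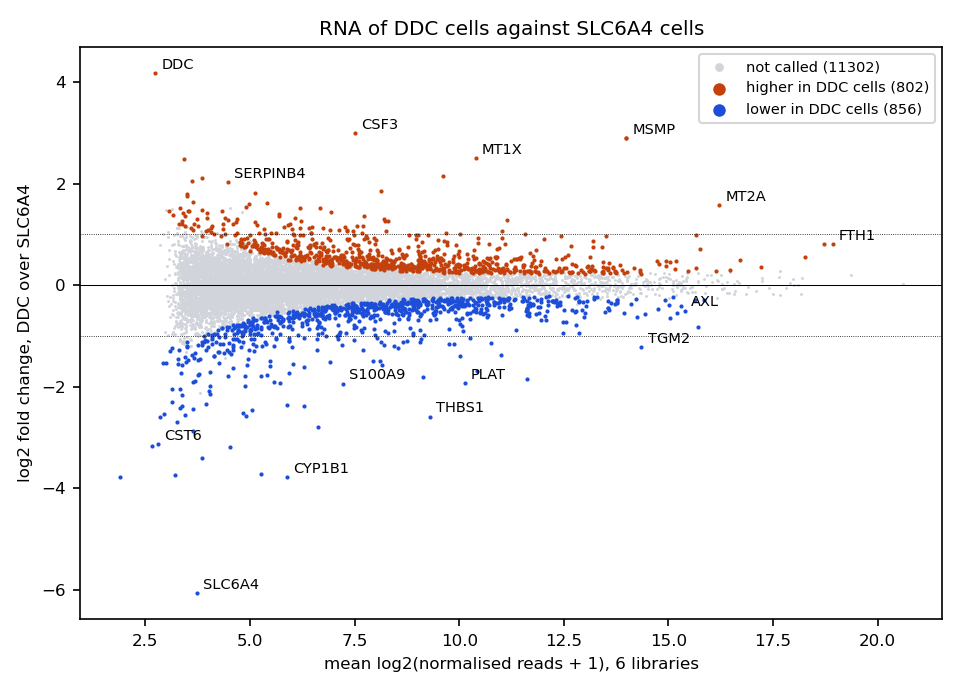
Mean level over the 6 libraries (x axis, log2 scale) and log2 fold change of DDC over SLC6A4 cells (y axis) of the 12960 genes tested. Colours mark the 802 genes called higher and the 856 called lower in DDC cells, which lie at all levels.

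Metallothioneins had the largest median difference of the 36 lists examined, and they were higher in DDC cells. Metallothioneins are small cysteine-rich proteins that bind zinc and copper, and the zinc-sensing factor MTF1 switches on their genes through metal response elements in their promoters. The promoters of 4 genes of the chromosome 16 cluster are shown, because MT2A and MT1X were higher in DDC cells while MT1B and MT1H of the same cluster stayed under the filter. Each is the RefSeq window of 250 bases before to 50 after the start (GRCh38.p14, plus strand), 5′ to 3′, and capitals mark the metal response element core, TGCACNC or TGCGCNC on either strand.
MT2A, chr16:56608334-56608633: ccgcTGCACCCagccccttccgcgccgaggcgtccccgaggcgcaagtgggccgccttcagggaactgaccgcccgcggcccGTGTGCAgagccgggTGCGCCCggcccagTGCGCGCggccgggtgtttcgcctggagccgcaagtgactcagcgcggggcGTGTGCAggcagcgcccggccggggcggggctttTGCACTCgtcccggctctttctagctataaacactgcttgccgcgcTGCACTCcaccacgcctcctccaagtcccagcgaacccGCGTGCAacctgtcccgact
MT1X, chr16:56682220-56682519: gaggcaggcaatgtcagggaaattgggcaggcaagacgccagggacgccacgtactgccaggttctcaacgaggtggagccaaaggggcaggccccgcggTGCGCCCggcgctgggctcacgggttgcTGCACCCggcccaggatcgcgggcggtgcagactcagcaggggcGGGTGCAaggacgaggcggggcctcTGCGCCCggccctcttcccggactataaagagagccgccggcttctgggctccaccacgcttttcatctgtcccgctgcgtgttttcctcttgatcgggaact
MT1B, chr16:56651636-56651935: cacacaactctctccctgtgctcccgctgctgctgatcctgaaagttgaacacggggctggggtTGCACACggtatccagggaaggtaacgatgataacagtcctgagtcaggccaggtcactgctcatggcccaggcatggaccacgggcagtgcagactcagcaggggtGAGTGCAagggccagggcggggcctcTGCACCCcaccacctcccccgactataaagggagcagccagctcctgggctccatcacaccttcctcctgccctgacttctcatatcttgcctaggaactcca
MT1H, chr16:56669564-56669863: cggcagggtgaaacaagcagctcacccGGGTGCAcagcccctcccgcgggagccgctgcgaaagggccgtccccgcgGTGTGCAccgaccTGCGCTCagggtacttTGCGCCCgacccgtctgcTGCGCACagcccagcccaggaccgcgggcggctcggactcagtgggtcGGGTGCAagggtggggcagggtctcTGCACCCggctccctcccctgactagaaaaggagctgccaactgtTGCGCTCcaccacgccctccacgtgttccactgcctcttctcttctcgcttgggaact

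MT2A held 8 matches, MT1X 4, MT1H 8 and MT1B 3. The core occurred in 29.6% of 35116 RefSeq promoter windows and in 7 of the 10 windows that matched 9 of the 15 listed genes. MT1H had as many matches as MT2A, but it had 1.04, 1.10 and 0.991 normalised reads in DDC cells and 0, 0.910 and 0 in SLC6A4 cells. MT1B was at 0 in all 9 libraries.

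MT1X (chr16:56682470-56684196, plus strand) had 3155, 3347 and 3083 normalised reads in DDC cells, 479, 595 and 624 in SLC6A4 cells and 722, 782 and 750.3 in empty-vector cells. It was higher in DDC cells by 2.50 on the log2 scale (SE 0.09, limma adjusted p = 6.7e-14). MT2A (chr16:56608584-56609497, plus strand) had 129397, 134155 and 129738 normalised reads in DDC cells, 40217, 45161 and 46736 in SLC6A4 cells and 51035, 47191 and 39669 in empty-vector cells (log2 1.58, SE 0.09, limma adjusted p = 9.4e-11). In MT2A the SLC6A4 cells overlapped the empty vector, in MT1X they lay a little below it, and the DDC cells were far above in both. MT1F (chr16:56657731-56660698, plus strand) had 539, 550.0 and 525 normalised reads in DDC cells, 141, 191 and 118 in SLC6A4 cells and 381, 360.0 and 297 in empty-vector cells (log2 1.86, SE 0.13, limma adjusted p = 4.3e-09). There the empty vector lay nearer the DDC cells and the SLC6A4 cells stood apart below.

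Of 15 genes listed as metallothioneins, their regulator MTF1 and zinc exporters, 5 passed the filter, 3 were higher in DDC cells and none was lower, with a list median of 1.58. The other members that passed overlapped between the lines. MT1M had 14.5, 8.80 and 30.7 normalised reads in DDC cells, against 19.5, 11.8 and 3.99 in SLC6A4 cells, and MTF1 had 55.02, 83.6 and 53.5 in DDC cells, against 48.3, 43.7 and 58.8 in SLC6A4 cells. MT1A, MT1B, MT1E, MT1G, MT1H, MT3, MT4 and the zinc exporters SLC30A1, SLC30A2 and SLC30A10 stayed under the filter. Metallothionein genes are close copies of each other, and how reads shared between copies were counted is not given in the sources used here.

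TGM2, the enzyme that can place serotonin on histone H3, was lower in DDC cells. TGM2 (chr20:38127385-38166578, minus strand) had 15159.7, 16064 and 10628 normalised reads in DDC cells, 31695, 32556 and 31727 in SLC6A4 cells and 20245, 19229.7 and 18388 in empty-vector cells. The SLC6A4 libraries lay above and the DDC libraries below the empty vector, without overlap, and the lines differed by -1.22 on the log2 scale (SE 0.11, limma adjusted p = 1.4e-07). DDC replicate 3 was the lowest of the 9 libraries. TGM2 was the only gene called by limma among 22 of 29 listed transglutaminases, H3K4 methyltransferase subunits and H3K4 demethylases that passed, and the only transglutaminase that passed. The methyltransferase KMT2A (log2 0.04), the shared subunit WDR5 (-0.08) and the demethylase KDM5B (0.27) were not called.

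Of 35 genes of monoamine synthesis, transport, breakdown and reception 10 passed the filter, DDC and SLC6A4 among them, and 1 further gene was called. ALDH2, the mitochondrial aldehyde dehydrogenase that acts on aldehydes left by monoamine oxidase, had 15.6, 14.3 and 15.8 normalised reads in DDC cells, 6.51, 3.64 and 9.97 in SLC6A4 cells and 2.05, 4.34 and 8.62 in empty-vector cells (log2 1.16, SE 0.38, limma adjusted p = 0.0470). Its limma call was lost with library-total scaling (adjusted p = 0.0615) and when leaving out DDC replicate 1 (0.107), DDC replicate 2 (0.0838), SLC6A4 replicate 1 (0.0942) or SLC6A4 replicate 2 (0.195). MAOA, the oxidase that breaks down serotonin, had 20.8, 24.2 and 29.7 normalised reads in DDC cells, 37.2, 27.3 and 28.9 in SLC6A4 cells and 40.97, 33.6 and 47.4 in empty-vector cells, so that its lines overlapped and it was not called (log2 -0.31).

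In the kynurenine pathway, the main route of tryptophan breakdown, KMO was the only gene called by limma among 4 of 12 that passed. KMO hydroxylates kynurenine, and it had 16.6, 8.80 and 20.8 normalised reads in DDC cells, 34.4, 40.03 and 35.9 in SLC6A4 cells and 25.6, 33.6 and 43.99 in empty-vector cells (log2 -1.28, SE 0.28, limma adjusted p = 0.0041). The SLC6A4 libraries lay within the range of the empty vector and the DDC libraries below it.

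THBS1 shared the smallest adjusted p of the comparison with MSMP and RGP1 and was lower in DDC cells. Its product thrombospondin-1 is a matrix protein that binds cell surfaces and can activate TGF-beta. THBS1 (chr15:39581079-39599466, plus strand) had 269, 242 and 261 normalised reads in DDC cells, 1514, 1553 and 1577 in SLC6A4 cells and 843, 815 and 789 in empty-vector cells. The DDC libraries were below and the SLC6A4 libraries above the empty vector (log2 -2.59, SE 0.08, limma adjusted p = 1.6e-14). THBS1-AS1 (log2 -2.80) and FSIP1 (-2.38), both on the minus strand at this locus, showed the same order. THBS1-AS1 had 36.3, 34.1 and 39.6 in DDC cells, 267, 255 and 259 in SLC6A4 cells and 124, 131 and 122 in empty-vector cells. Whether RNA reads were counted by strand is not given in the sources used here, so these 3 genes cannot be told apart as sources of reads.

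EFEMP1 was the other gene called among 12 of 19 listed thrombospondins, fibulins and fibrillins that passed (list median -0.05). EFEMP1, the matrix glycoprotein fibulin-3 (chr2:55865967-55924139), had 14.5, 7.70 and 19.8 normalised reads in DDC cells, 79.9, 70.1 and 78.8 in SLC6A4 cells and 46.1, 52.05 and 46.6 in empty-vector cells (log2 -2.45, SE 0.26, limma adjusted p = 1.6e-06). It thus repeated the order of THBS1. The fibrillin FBN1 (log2 -0.07), the latent TGF-beta binding protein LTBP1 (0.01) and the tenascin TNC (0.11) were not called.

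Genes of epithelial adhesion were lower in DDC cells: 9 of the 21 that passed of 31 listed were lower and none was higher, with a list median of -0.46. CDH1, which encodes E-cadherin, had 3.11, 2.20 and 5.94 normalised reads in DDC cells, 26.02, 20.9 and 20.9 in SLC6A4 cells and 65.6, 39.04 and 53.5 in empty-vector cells (log2 -2.38, SE 0.38, limma adjusted p = 2.0e-04). CDH3, which encodes P-cadherin, had 31.1, 29.7 and 16.8 in DDC cells, 139, 126 and 134 in SLC6A4 cells and 255, 247 and 239.8 in empty-vector cells (log2 -2.36, SE 0.20, limma adjusted p = 6.7e-08). EPCAM, an epithelial adhesion molecule, had 35.3, 23.1 and 20.8 in DDC cells, 68.8, 81.9 and 71.8 in SLC6A4 cells and 96.3, 95.4 and 107.8 in empty-vector cells (log2 -1.49, SE 0.21, limma adjusted p = 4.3e-05). These 3 genes ran in the same order without overlap, with DDC cells lowest and empty-vector cells highest, and the tight junction gene CLDN7 (log2 -2.58) and the adhesion gene MPZL2 (-2.34) did the same. CLDN4 was lower by a small amount (log2 -0.31), with 2457, 3049 and 2939 in DDC cells, against 3026, 3781 and 3661 in SLC6A4 cells, and its lines overlapped. The limma call of CLDN4 was lost without DDC replicate 1 (0.152), SLC6A4 replicate 2 (0.177) or SLC6A4 replicate 3 (0.131), as adjusted p. DSP (log2 0.03), JUP (-0.68) and OCLN (-0.19), which encode desmosome and tight junction proteins, were not called.

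Epithelial splicing and transcription regulators gave 0 calls by limma, by edgeR and by DESeq2 among 12 of 23 that passed, with 1 gene at an unadjusted p under 0.05 (list median -0.03). ESRP2, an epithelial splicing factor, differed by -0.51, EHF by -0.58, KLF5 by 0.10 and FOXA1 by 0.28, and TMM scaling gave 1 lower call. AP1M2, the epithelial form of a clathrin adaptor subunit, had 4.15, 7.70 and 8.91 normalised reads in DDC cells, 67.8, 68.2 and 68.8 in SLC6A4 cells and 71.7, 115 and 87.97 in empty-vector cells (log2 -3.18, SE 0.27, limma adjusted p = 6.7e-08).

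Of the 9 identity markers that passed, 6 were lower and none was higher in DDC cells (list median -0.73), EPCAM and CDH1 among them. KRT7 had 808, 840.4 and 916 normalised reads in DDC cells, 1983, 1739.7 and 1578 in SLC6A4 cells and 1454, 1497 and 1666 in empty-vector cells (log2 -1.04, SE 0.09, limma adjusted p = 5.5e-08). KRT8 (log2 -0.73) and KRT19 (-0.49) were lower as well. KRT18, the partner of KRT8, overlapped between the lines and was not called, with 2982, 3642 and 3784 in DDC cells, against 3859, 2589.5 and 2591 in SLC6A4 cells. The filament gene VIM (log2 -0.17) and the adhesion receptor CD44 (-0.13) were not called.

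Surface proteases of epithelia and their inhibitors divided, with 4 genes higher and 4 lower of 9 that passed of 21 listed. ST14, which encodes matriptase (chr11:130159782-130210362), had 8.31, 13.2 and 11.9 normalised reads in DDC cells, 76.2, 72.8 and 55.9 in SLC6A4 cells and 123, 130.1 and 144 in empty-vector cells (log2 -2.52, SE 0.24, limma adjusted p = 2.8e-07). PRSS8, which encodes the membrane protease prostasin, had 1.04, 3.30 and 5.94 in DDC cells, 13.01, 20.02 and 23.9 in SLC6A4 cells and 73.7, 55.3 and 55.2 in empty-vector cells (log2 -2.31, SE 0.46, limma adjusted p = 0.0016). SPINT1, a membrane inhibitor of matriptase, had 80.98, 79.2 and 75.3 in DDC cells, 168, 167 and 142 in SLC6A4 cells and 309, 282 and 314 in empty-vector cells (log2 -1.01, SE 0.13, limma adjusted p = 1.7e-05). Matriptase, prostasin and this inhibitor were all lowest in DDC cells and highest in empty-vector cells. The secreted elastase inhibitors went the other way between the lines. PI3, or elafin, had 11284, 12150.4 and 13031 in DDC cells, 7049.6, 7245 and 7312 in SLC6A4 cells and 27203, 26643 and 24319.6 in empty-vector cells (log2 0.75, SE 0.07, limma adjusted p = 4.0e-07), and SLPI differed by 0.50.

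The trypsinogen genes PRSS3 and PRSS2 went opposite ways. PRSS3 had 14948, 16616 and 17239 normalised reads in DDC cells, 8301, 8425 and 8282 in SLC6A4 cells and 12905, 12285 and 12209.8 in empty-vector cells (log2 0.96, SE 0.07, limma adjusted p = 1.8e-08). PRSS2 had 7.27, 17.6 and 9.91 in DDC cells, 38.1, 41.9 and 40.9 in SLC6A4 cells and 637, 573 and 507 in empty-vector cells (log2 -1.80, SE 0.29, limma adjusted p = 2.0e-04). They are near copies that can share reads, and their values are uncertain to that extent.

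In the hemidesmosome, which ties epithelial cells to the basement membrane, LAD1 and ITGB4 were lower and LAMA3 was higher in DDC cells, 3 calls among 9 of 13 that passed (list median -0.24). LAD1, an anchoring filament protein (chr1:201380833-201399915), had 14.5, 4.40 and 12.9 normalised reads in DDC cells, 141, 135 and 137 in SLC6A4 cells and 162, 158 and 145 in empty-vector cells (log2 -3.72, SE 0.29, limma adjusted p = 2.1e-08). ITGB4, the integrin subunit of hemidesmosomes, had 159.9, 183 and 158 in DDC cells, 234, 283 and 247 in SLC6A4 cells and 648, 615 and 585 in empty-vector cells (log2 -0.61, SE 0.11, limma adjusted p = 9.2e-04). LAMA3, a laminin chain, had 274, 263 and 223 in DDC cells, 158, 141 and 186 in SLC6A4 cells and 282, 229 and 279 in empty-vector cells (log2 0.65, SE 0.12, limma adjusted p = 0.0010). For LAD1 the SLC6A4 cells lay just below the empty vector, for LAMA3 the DDC cells overlapped it, and for ITGB4 both lines lay far below it.

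Clade B serpins, most of them intracellular protease inhibitors, gave 3 higher and 2 lower calls among 9 of 13 that passed. SERPINB4 had 58.1, 41.8 and 34.7 normalised reads in DDC cells, 11.2, 10.9 and 7.98 in SLC6A4 cells and 204, 197 and 188 in empty-vector cells (log2 2.04, SE 0.27, limma adjusted p = 2.2e-05). SERPINB3 had 93.4, 104 and 119 in DDC cells, 33.5, 47.3 and 44.9 in SLC6A4 cells and 477, 535 and 535 in empty-vector cells (log2 1.32, SE 0.17, limma adjusted p = 1.7e-05). SERPINB11 (log2 2.04) overlaps SERPINB3 on the other strand, and SERPINB3 and SERPINB4 are near copies, so the 3 higher calls are not independent. In all 3 the empty vector was far above both lines. SERPINB2, which inhibits urokinase, was lower (log2 -1.28), with 10.4, 8.80 and 7.92 in DDC cells, against 20.4, 29.1 and 20.9 in SLC6A4 cells. Its limma adjusted p was over the threshold without SLC6A4 replicate 2 (0.061). DESeq2 called 2 of the list higher and 0 lower, with an adjusted p of 0.0876 for SERPINB5 and none given for SERPINB2 and SERPINB11. SERPINB5 was the other gene called lower by limma (log2 -0.48, limma adjusted p = 0.0398), and that call was lost without DDC replicate 2 (0.0787), DDC replicate 3 (0.144), SLC6A4 replicate 1 (0.0698), SLC6A4 replicate 2 (0.19) or SLC6A4 replicate 3 (0.0684).

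S100 calcium-binding proteins gave 5 higher and 4 lower calls among 15 of 18 that passed. S100A9, a subunit of calprotectin, had 80.98, 66 and 79.2 normalised reads in DDC cells, 257, 285 and 334 in SLC6A4 cells and 4070.4, 3297 and 3445 in empty-vector cells (log2 -1.94, SE 0.13, limma adjusted p = 2.1e-09). Its partner S100A8 had 15.6, 13.2 and 20.8 in DDC cells, 26.02, 45.5 and 35.9 in SLC6A4 cells and 467, 438 and 457 in empty-vector cells (log2 -1.06, SE 0.26, limma adjusted p = 0.0102), and that call was lost without SLC6A4 replicate 2 (0.0884). S100A14 was lower too (log2 -2.70, SE 0.41, limma adjusted p = 1.1e-04), with 4.15, 1.10 and 3.96 in DDC cells, 21.4, 25.5 and 23.9 in SLC6A4 cells and 112, 101 and 123 in empty-vector cells. Both lines stood far below the empty vector in these 3 genes, with the DDC cells lowest. S100A16 (log2 0.48), S100A13 (0.55) and the overlapping pair S100A3 (0.61) and S100A4 (0.56) were higher in DDC cells by smaller amounts.

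Hair keratin and keratin-associated genes were lower in DDC cells in 6 of the 11 that passed of 27 listed, with none higher and a median of -0.98. KRT34 had 31.1, 17.6 and 26.7 normalised reads in DDC cells, 70.6, 83.7 and 73.8 in SLC6A4 cells and 8.19, 14.1 and 13.8 in empty-vector cells (log2 -1.59, SE 0.21, limma adjusted p = 2.3e-05). KRTAP2-3 had 217, 256 and 258 in DDC cells, 609, 621 and 499 in SLC6A4 cells and 157, 123 and 112 in empty-vector cells (log2 -1.24, SE 0.11, limma adjusted p = 6.7e-08). In both, the SLC6A4 cells were highest and the empty vector lowest. KRTAP2-1, KRTAP2-2 and KRTAP2-4 made up 3 of the other 4 calls and are near-identical copies of KRTAP2-3. The limma call of KRTAP2-1 was lost without a filter (adjusted p = 0.0535), with all 9 libraries in the fit (0.0547) and without DDC replicate 2 (0.0524), SLC6A4 replicate 1 (0.14) or SLC6A4 replicate 2 (0.0988). The call of KRTAP2-2 was lost without SLC6A4 replicate 1 (0.0539). DESeq2 called 4 of the list lower and gave no adjusted p for KRTAP2-1 and KRTAP2-2. KRT81 (log2 0.04), KRT83 (0.12) and KRT86 (0.11) were not called.

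**Figure D2:**
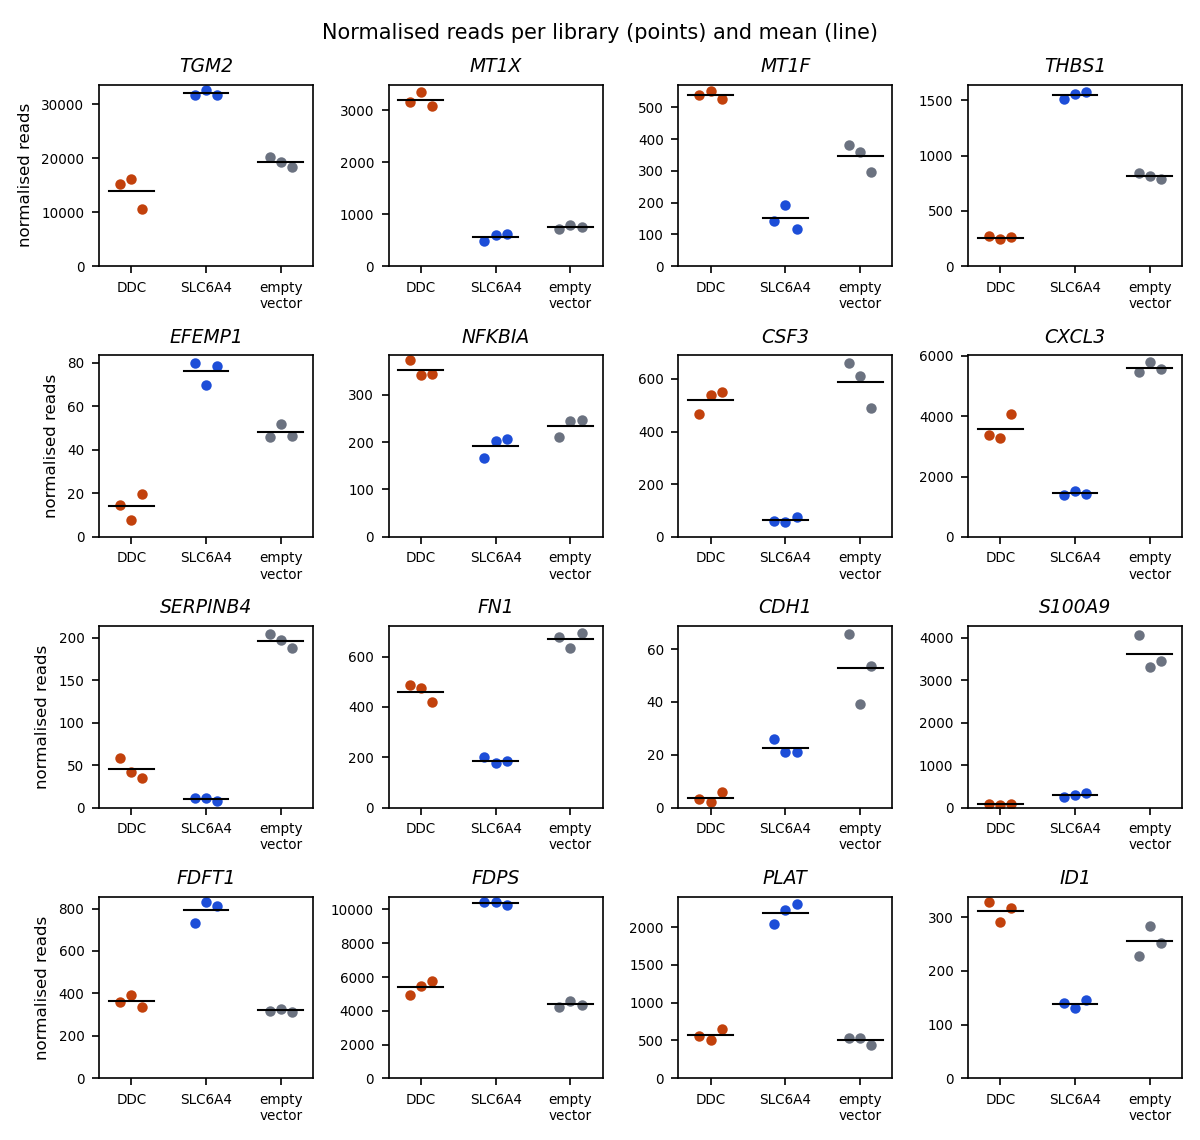
Normalised reads (y axis, from 0, one panel per gene) of 16 genes in the DDC, SLC6A4 and empty-vector libraries, with points for the 3 libraries and a line for their mean. In TGM2, THBS1 and EFEMP1 the DDC libraries lie below and the SLC6A4 libraries above the empty vector, whereas in CDH1 and S100A9 the empty vector lies above both lines.

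Cholesterol synthesis genes were lower in DDC cells: 14 of the 21 listed, all of which passed, were lower and none was higher, and the list median was -0.67. HMGCS1, which makes HMG-CoA, had 18.7, 15.4 and 19.8 normalised reads in DDC cells, 48.3, 60.96 and 43.9 in SLC6A4 cells and 20.5, 13.01 and 29.3 in empty-vector cells (log2 -1.45, SE 0.22, limma adjusted p = 1.2e-04). FDFT1, which makes squalene, had 361, 392 and 338 in DDC cells, 732, 829.8 and 811 in SLC6A4 cells and 318, 327 and 315 in empty-vector cells (log2 -1.12, SE 0.09, limma adjusted p = 3.2e-08). FDPS, which makes farnesyl diphosphate, had 4956, 5477 and 5784 in DDC cells, 10426, 10443 and 10243 in SLC6A4 cells and 4221, 4588 and 4325 in empty-vector cells (log2 -0.94, SE 0.07, limma adjusted p = 2.1e-08). In these 3 genes the SLC6A4 libraries stood alone above, while the DDC libraries overlapped the empty vector or lay a little above it. MSMO1, a sterol oxidase, had 196, 167 and 180.3 in DDC cells, 344, 371 and 401 in SLC6A4 cells and 202, 213 and 212 in empty-vector cells (log2 -1.03, SE 0.10, limma adjusted p = 7.2e-07), with the DDC libraries below the empty vector. ACAT2 (log2 -0.87), IDI1 (-1.28), SQLE (-0.94), CYP51A1 (-0.93), NSDHL (-0.67) and DHCR7 (-0.89) were lower in DDC cells as well, and in each the mean of the empty vector was below both lines.

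Sterol uptake and feedback genes gave 5 lower and 1 higher calls among 14 of 18 that passed (median -0.20). INSIG1, which holds the SREBP complex in the endoplasmic reticulum, had 18.7, 15.4 and 16.8 normalised reads in DDC cells, 32.5, 35.5 and 40.9 in SLC6A4 cells and 18.4, 10.8 and 19.8 in empty-vector cells (log2 -1.05, SE 0.23, limma adjusted p = 0.0043). It was highest in SLC6A4 cells, and the DDC cells overlapped the empty vector. The transcription factor genes SREBF1 (log2 0.03) and SREBF2 (-0.24) were not called. Of 20 genes of fatty acid synthesis and desaturation 18 passed, 5 were lower and 1 was higher (median -0.11). SCD, the stearoyl desaturase, had 244, 235 and 205 in DDC cells, 497, 535 and 526 in SLC6A4 cells and 321, 334 and 269 in empty-vector cells (log2 -1.19, SE 0.10, limma adjusted p = 4.2e-08). FASN, the fatty acid synthase, had 23.9, 24.2 and 21.8 in DDC cells, 48.3, 47.3 and 29.9 in SLC6A4 cells and 19.5, 22.8 and 17.2 in empty-vector cells (log2 -0.79, limma adjusted p = 0.0265). The call of FASN was lost with DESeq2 (adjusted p = 0.0608) and, by limma, without DDC replicate 1 (0.0526), DDC replicate 3 (0.0613), SLC6A4 replicate 1 (0.134) or SLC6A4 replicate 2 (0.136). ACLY (log2 -0.25) and ACACA (-0.08), which supply the chain's building blocks, were not called. The SREBP site TCACNCCAC, on either strand, was in 1.13% of promoter windows, in 0 of 23 windows of 16 matched cholesterol synthesis genes and in 1 of 22 windows of the sterol genes, that of SREBF2.

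Target genes of the YAP and TEAD factors, which respond to cell shape and tension, were lower in DDC cells in 8 of 24 that passed of 27 listed, with none higher and a median of -0.34. ANKRD1 had 8.31, 6.60 and 5.94 normalised reads in DDC cells, 39.04, 24.6 and 40.9 in SLC6A4 cells and 9.22, 9.76 and 6.90 in empty-vector cells (log2 -2.15, SE 0.30, limma adjusted p = 4.5e-05). CCN1, a secreted matricellular protein, had 223, 229 and 222 in DDC cells, 457, 435 and 408 in SLC6A4 cells and 156, 109.5 and 159 in empty-vector cells (log2 -0.94, SE 0.09, limma adjusted p = 6.3e-07). The SLC6A4 libraries stood above the rest in both. IGFBP3, a carrier of insulin-like growth factors, ran in another order, with 37.4, 33 and 22.8 in DDC cells, 70.6, 79.2 and 64.8 in SLC6A4 cells and 93.2, 85.7 and 107 in empty-vector cells (log2 -1.20, SE 0.20, limma adjusted p = 3.1e-04). AJUBA, a LIM protein, was lower by a smaller amount (log2 -0.58). YAP1 itself overlapped between the lines, with 23.9, 13.2 and 9.91 in DDC cells, against 26.02, 34.6 and 17.95 in SLC6A4 cells, and was not called (log2 -0.75).

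Genes of plasminogen activation went both ways. PLAT, the tissue-type activator, had 564, 513 and 646 normalised reads in DDC cells, 2037, 2220.1 and 2307 in SLC6A4 cells and 534, 527 and 442 in empty-vector cells (log2 -1.93, SE 0.09, limma adjusted p = 3.4e-12). PLAU, the urokinase-type activator, had 12175, 14969 and 15873 in DDC cells, 8929.8, 8254 and 8205 in SLC6A4 cells and 17797, 17472 and 12438 in empty-vector cells (log2 0.75, SE 0.09, limma adjusted p = 4.5e-06), and its receptor PLAUR was higher too (log2 0.46). The SLC6A4 cells were thus highest for one activator and lowest for the other. SERPINE2, an inhibitor of both, had 164, 197 and 166 in DDC cells, 85.5, 82.8 and 76.8 in SLC6A4 cells and 223, 207 and 161 in empty-vector cells (log2 1.09, SE 0.13, limma adjusted p = 5.2e-06). Of the 10 genes that passed of 12 listed, 3 were higher and 3 lower.

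Among 14 of 21 listed TGF-beta and BMP targets that passed, 2 were higher and 3 lower. ID1 and ID3, inhibitors of helix-loop-helix factors that BMP signals raise, were higher in DDC cells. ID1 had 328, 290.4 and 317 normalised reads in DDC cells, 139, 131 and 147 in SLC6A4 cells and 227, 284 and 253 in empty-vector cells (log2 1.16, SE 0.11, limma adjusted p = 2.0e-07). ID3 had 735, 919.6 and 918 in DDC cells, 479.6, 418 and 402 in SLC6A4 cells and 340.1, 367 and 326 in empty-vector cells (log2 0.98, SE 0.10, limma adjusted p = 7.3e-07). NOG, which encodes the BMP antagonist noggin, had 16.6, 12.1 and 15.8 in DDC cells, 56.7, 51.9 and 51.9 in SLC6A4 cells and 20.5, 24.9 and 27.6 in empty-vector cells (log2 -1.79, SE 0.22, limma adjusted p = 1.1e-05). In DDC cells ID1 was above and NOG below the empty vector, and in SLC6A4 cells ID1 was below and NOG above it. PMEPA1 (log2 -0.84), which TGF-beta raises, was lower in DDC cells.

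Mesenchymal genes did not move together, with 4 higher and 2 lower among 16 of 26 that passed (median -0.02). FN1, which encodes fibronectin, had 488, 475 and 418 normalised reads in DDC cells, 201, 176 and 184 in SLC6A4 cells and 677, 633 and 696 in empty-vector cells (log2 1.30, SE 0.10, limma adjusted p = 2.2e-08). The receptor kinase AXL had 35624, 30595 and 43604 in DDC cells, 51437, 52579.6 and 49565 in SLC6A4 cells and 19385, 19206 and 20964 in empty-vector cells (log2 -0.50, SE 0.10, limma adjusted p = 0.0022). FN1 was highest in the empty vector and AXL lowest there. ZEB1 (log2 -0.26) and SNAI2 (0.16), transcription factors of mesenchymal cells, were not called.

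The CXC chemokines CXCL1, CXCL2, CXCL3, CXCL5 and CXCL6, which attract neutrophils, were higher in DDC than in SLC6A4 cells, and the mean of the empty vector was higher still in all 5. CXCL3 had 3365, 3269 and 4058 normalised reads in DDC cells, 1386, 1523 and 1433 in SLC6A4 cells and 5465, 5801 and 5578 in empty-vector cells (log2 1.29, SE 0.08, limma adjusted p = 1.1e-09). CXCL2 had 265, 339 and 325 in DDC cells, 137, 189 and 159 in SLC6A4 cells and 371, 358 and 305 in empty-vector cells (log2 0.94, SE 0.13, limma adjusted p = 3.1e-05). CXCL5 (log2 0.84), CXCL6 (0.58) and CXCL1 (0.56) followed. CSF3, the granulocyte colony-stimulating factor (chr17:40015361-40017813), had 465, 539 and 551 in DDC cells, 60.4, 56.4 and 75.8 in SLC6A4 cells and 659.6, 613 and 489 in empty-vector cells (log2 3.00, SE 0.13, limma adjusted p = 8.1e-13). In CSF3 the DDC libraries overlapped the empty vector and the SLC6A4 libraries lay far below. CXCL8, also a neutrophil attractant, went the other way, with 322, 247 and 328 in DDC cells, 388, 379 and 403 in SLC6A4 cells and 606, 592 and 578 in empty-vector cells (log2 -0.39, limma adjusted p = 0.0186), and that limma call was lost without DDC replicate 2 (0.114), SLC6A4 replicate 1 (0.056), SLC6A4 replicate 2 (0.0509) or SLC6A4 replicate 3 (0.0763). Of 21 chemokine and cytokine genes that passed of 32 listed, 6 were higher and 5 lower, with TMM scaling 7 and 3, and with DESeq2 6 and 2.

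Of 17 subunits and feedback genes of NF-kB that passed of 18 listed, 6 were higher and 1 was lower in DDC cells (median 0.21), or 4 and 1 with library-total scaling. NF-kB is a factor behind many cytokine genes. NFKBIA, the inhibitor that NF-kB itself induces, had 373, 341 and 343 normalised reads in DDC cells, 165, 202 and 206 in SLC6A4 cells and 210.0, 244 and 247 in empty-vector cells (log2 0.88, SE 0.11, limma adjusted p = 8.4e-06). ZC3H12A, an RNase that degrades cytokine transcripts, had 273, 310.2 and 261 in DDC cells, 130.1, 130.1 and 115 in SLC6A4 cells and 289, 314 and 298 in empty-vector cells (log2 1.16, SE 0.11, limma adjusted p = 4.4e-07). SOD2, the mitochondrial superoxide dismutase, had 1893, 1838 and 2090.0 in DDC cells, 1063, 965 and 1026 in SLC6A4 cells and 1690.0, 1731 and 1733 in empty-vector cells (log2 0.93, SE 0.08, limma adjusted p = 5.5e-08). The DDC libraries were above the empty vector in NFKBIA and SOD2 and overlapped it in ZC3H12A. SOD2 overlaps ACAT2, which was lower, on the opposite strand. BIRC3, an inhibitor of apoptosis, was the lower gene, with 191, 181 and 162 in DDC cells, 385, 348 and 329 in SLC6A4 cells and 172, 116 and 135 in empty-vector cells (log2 -0.98, SE 0.11, limma adjusted p = 1.6e-06). The subunit genes RELA (log2 0.07), NFKB1 (-0.12) and NFKB2 (0.23) were not called.

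Complement genes gave 6 higher and 2 lower calls among 9 of 20 that passed (median 0.57). C1S and C1R encode the proteases of the first complement component. C1S had 60.2, 61.6 and 70.3 normalised reads in DDC cells, 13.01, 18.2 and 21.9 in SLC6A4 cells and 8.19, 23.9 and 24.1 in empty-vector cells (log2 1.82, SE 0.22, limma adjusted p = 8.1e-06). C1R had 118, 128 and 119 in DDC cells, 73.4, 60.1 and 74.8 in SLC6A4 cells and 92.2, 84.6 and 84.5 in empty-vector cells (log2 0.81, SE 0.14, limma adjusted p = 5.3e-04). Both were highest in DDC cells, without overlap with either other group. C3, the central component, was lower, with 21.8, 18.7 and 21.8 in DDC cells, 51.1, 61.9 and 45.9 in SLC6A4 cells and 133, 137 and 169.9 in empty-vector cells (log2 -1.30, SE 0.21, limma adjusted p = 2.2e-04), and there the empty vector was highest. CD59 (log2 0.34) and CLU (0.57), which restrain the terminal complex, were higher in DDC cells.

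Targets of ATF4, the factor of the amino acid and integrated stress responses, were higher in DDC cells in 10 of 28 that passed of 32 listed and lower in 2 (median 0.20), or in 6 and 2 with library-total scaling. GDF15, a secreted stress cytokine, had 135, 223 and 170.4 normalised reads in DDC cells, 58.6, 58.2 and 61.8 in SLC6A4 cells and 342, 301 and 260.5 in empty-vector cells (log2 1.52, SE 0.16, limma adjusted p = 1.2e-06). DDIT4, an inhibitor of mTOR signalling, had 196, 278 and 211 in DDC cells, 99.4, 126 and 136 in SLC6A4 cells and 860.4, 779 and 624 in empty-vector cells (log2 0.92, SE 0.14, limma adjusted p = 1.4e-04). NUPR1 (log2 0.99) and DDIT3, which encodes CHOP (0.53), were higher by similar or smaller amounts. In GDF15 and DDIT4 the empty vector was above both lines. STC2, a secreted glycoprotein, was lower, with 254, 266 and 238 in DDC cells, 461, 515 and 445 in SLC6A4 cells and 511, 478 and 445 in empty-vector cells (log2 -0.90, SE 0.10, limma adjusted p = 1.5e-06). ASNS (log2 0.30) and PSAT1 (0.01), which make asparagine and serine, were not called.

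The response element TGATGNAA of ATF4 and its partners, on either strand, was found in 3.62% of promoter windows and in 10 of 46 windows of 27 matched genes of the ATF4 list. Of the 10 called genes that matched, AARS1, ATF3 and CHAC1 held it. The limma call of AARS1 (log2 0.27, limma adjusted p = 0.0446) was lost with library-total scaling (adjusted p = 0.189), without a filter (0.0707) and without DDC replicate 1 (0.0729), DDC replicate 2 (0.193), SLC6A4 replicate 1 (0.0957), SLC6A4 replicate 2 (0.125) or SLC6A4 replicate 3 (0.154), and with DESeq2 its adjusted p was 0.0542. ATF3 and CHAC1 are shown because both are quickly induced stress genes with a match. The windows run from 250 bases before to 50 after a RefSeq start (GRCh38.p14, plus strand), and capitals mark the match. ATF3 has another window (chr1:212614768-212615067) with 0 matches.
ATF3, chr1:212565157-212565456: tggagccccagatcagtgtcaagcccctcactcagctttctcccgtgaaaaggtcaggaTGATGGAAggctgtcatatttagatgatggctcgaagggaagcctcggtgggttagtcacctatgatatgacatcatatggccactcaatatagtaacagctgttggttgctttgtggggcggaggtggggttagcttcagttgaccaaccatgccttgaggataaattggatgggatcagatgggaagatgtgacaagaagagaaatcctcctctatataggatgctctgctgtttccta
CHAC1, chr15:40953221-40953520: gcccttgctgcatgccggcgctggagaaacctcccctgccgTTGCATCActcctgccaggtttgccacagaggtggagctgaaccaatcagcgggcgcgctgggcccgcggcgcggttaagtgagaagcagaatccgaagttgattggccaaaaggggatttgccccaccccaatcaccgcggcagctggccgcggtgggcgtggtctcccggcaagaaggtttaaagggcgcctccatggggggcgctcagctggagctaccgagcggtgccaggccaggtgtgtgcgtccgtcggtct

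ATF3, a transcription factor, had 65.4, 53.9 and 52.5 normalised reads in DDC cells, 34.4, 43.7 and 33.9 in SLC6A4 cells and 33.8, 43.4 and 39.7 in empty-vector cells (log2 0.61, limma adjusted p = 0.0367). CHAC1, which degrades glutathione, had 50.9, 57.2 and 58.4 in DDC cells, 32.5, 38.2 and 34.9 in SLC6A4 cells and 59.4, 47.7 and 41.4 in empty-vector cells (log2 0.64, limma adjusted p = 0.0227). The lines did not overlap in either, but both were near the threshold. With library-total scaling the adjusted p was 0.0901 for ATF3 and 0.0513 for CHAC1, and with DESeq2 it was 0.109 and 0.0821. By limma the call of ATF3 was lost without DDC replicate 1 (0.138), DDC replicate 2 (0.0601), SLC6A4 replicate 1 (0.117) or SLC6A4 replicate 3 (0.13). The call of CHAC1 was lost without DDC replicate 2 (0.0697), DDC replicate 3 (0.0668), SLC6A4 replicate 1 (0.0819) or SLC6A4 replicate 3 (0.0659).

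Of 19 genes of the unfolded protein response 4 were lower and 1 was higher in DDC cells (median -0.06). HSPA5, the chaperone BiP, had 17624, 17595 and 20179 normalised reads in DDC cells, 27382, 26436 and 27760.1 in SLC6A4 cells and 34861, 38095 and 34294 in empty-vector cells (log2 -0.56, SE 0.08, limma adjusted p = 4.2e-05). PDIA3, a disulfide isomerase, had 17378, 17854 and 12633 in DDC cells, 25525, 24140.2 and 23362 in SLC6A4 cells and 30291, 30377 and 27450.3 in empty-vector cells (log2 -0.63, SE 0.10, limma adjusted p = 2.5e-04). HSP90B1 (log2 -0.34) and PDIA6 (-0.32) were lower too, and the empty vector was above both lines in all 4. XBP1 was the gene called higher (log2 0.45), and library-total scaling (adjusted p = 0.0675) and DESeq2 (0.0609) lost that call, as did limma without DDC replicate 1 (0.0546), DDC replicate 3 (0.0581), SLC6A4 replicate 1 (0.0525), SLC6A4 replicate 2 (0.103) or SLC6A4 replicate 3 (0.0509).

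NRF2 targets, genes of antioxidant and detoxifying enzymes, were higher in DDC cells in 13 of 30 that passed of 31 listed and lower in 2 (median 0.31), or in 11 and 3 with library-total scaling. ALDH3A1, an aldehyde dehydrogenase, had 162, 209 and 239 normalised reads in DDC cells, 63.2, 73.7 and 85.8 in SLC6A4 cells and 75.8, 66.1 and 53.5 in empty-vector cells (log2 1.43, SE 0.15, limma adjusted p = 1.4e-06). HMOX1, which breaks down haem, had 126, 139.7 and 111 in DDC cells, 62.3, 50.95 and 71.8 in SLC6A4 cells and 75.8, 66.1 and 69.9 in empty-vector cells (log2 1.02, SE 0.16, limma adjusted p = 1.2e-04). The quinone reductase gene NQO1 had 7231, 7719 and 7886 in DDC cells, 4835, 4963 and 5212 in SLC6A4 cells and 4379.7, 3892 and 4123 in empty-vector cells (log2 0.60, SE 0.07, limma adjusted p = 4.7e-06). The DDC libraries were above the empty vector in these 3 genes, and so they were in the ferritin chains. FTH1, the ferritin heavy chain, had 608771, 640128 and 728769 in DDC cells, 368457, 379697 and 381601 in SLC6A4 cells and 448750.4, 392903 and 413590.5 in empty-vector cells (log2 0.80, SE 0.12, limma adjusted p = 8.2e-05), and the light chain gene FTL was higher by a smaller amount (log2 0.55). AKR1C3, a ketoreductase with near copies, had 239, 213 and 239.7 in DDC cells, 101, 107 and 118 in SLC6A4 cells and 285, 266 and 353 in empty-vector cells (log2 1.08, SE 0.12, limma adjusted p = 1.8e-06), with the empty vector highest. NFE2L2, which encodes NRF2, was itself lower (log2 -0.37, limma adjusted p = 0.0210), and that call was lost without DDC replicate 2 (0.0826), SLC6A4 replicate 1 (0.116) or SLC6A4 replicate 2 (0.052). GCLM (log2 0.24) and TXN (0.03), of glutathione and thioredoxin metabolism, were not called. The antioxidant element TGACNNNGC, on either strand, was in 13.3% of promoter windows and in 9 of 28 windows of 22 matched genes of the list.

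CYP1B1, a cytochrome that oxidises oestrogens and aromatic hydrocarbons, was low in DDC cells. CYP1B1 (chr2:38066973-38109902, minus strand) had 12.5, 13.2 and 19.8 normalised reads in DDC cells, 225, 193 and 231 in SLC6A4 cells and 259, 214 and 204 in empty-vector cells (log2 -3.77, SE 0.19, limma adjusted p = 1.1e-11). The SLC6A4 libraries overlapped the empty vector and the DDC libraries stood alone below. CYP1B1-AS1 on the opposite strand ran alike (log2 -3.40), and without strand the pair cannot be told apart. The AHR receptor, which induces CYP1B1, overlapped between the lines, with 13.5, 8.80 and 11.9 in DDC cells, against 13.01, 10.01 and 9.97 in SLC6A4 cells, and was not called. Of 11 aryl hydrocarbon receptor and retinoid genes that passed of 26 listed, 2 were higher and 3 lower. DHRS3, a retinal reductase, was higher in DDC cells (log2 0.53), with 1597, 1486 and 1784 in DDC cells, 1127, 1202 and 1027 in SLC6A4 cells and 3796, 3739.9 and 4598 in empty-vector cells. CRABP2 of the same list was called lower (log2 -0.84). That call was lost with DESeq2 (adjusted p = 0.104) and, by limma, without DDC replicate 3 (0.109), SLC6A4 replicate 1 (0.0914), SLC6A4 replicate 2 (0.0976) or SLC6A4 replicate 3 (0.0735). The receptor's core site TNGCGTG, on either strand, was in 5.51% of promoter windows. It was in 1 of 39 windows of 20 matched genes of this list, that of AHRR. Of the 5 called genes 2 matched, and CYP1B1 was not among them, so its promoter was not searched.

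Of 33 G2/M genes 12 were lower in DDC cells, 1 was higher and 20 were not called (median -0.24). Of 33 G1/S genes 4 were lower, none was higher and 29 were not called (median -0.10). Library-total scaling gave 16 lower G2/M genes and 9 lower G1/S genes. TPX2, a spindle assembly factor, had 805, 757 and 747 normalised reads in DDC cells, 1047, 1059 and 1084 in SLC6A4 cells and 712, 772 and 702 in empty-vector cells (log2 -0.47, SE 0.08, limma adjusted p = 2.7e-04). BIRC5, or survivin, had 6539, 7412 and 7807 in DDC cells, 9239, 9692 and 9854 in SLC6A4 cells and 5901, 5756 and 5515 in empty-vector cells (log2 -0.41, SE 0.08, limma adjusted p = 0.0010). RRM2, the ribonucleotide reductase subunit, had 3012, 3181 and 3219 in DDC cells, 4803, 5174 and 5199 in SLC6A4 cells and 3564, 3579 and 3351 in empty-vector cells (log2 -0.69, SE 0.07, limma adjusted p = 8.1e-07). The SLC6A4 libraries were highest in these 3 genes, and the DDC libraries were below the empty vector in RRM2. CDC25B, a phosphatase that starts mitosis, was the gene called higher (log2 0.48). MKI67 (log2 -0.22), CCNB1 (-0.17) and PCNA (-0.05) were not called.

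Hypoxia and glycolysis genes gave 5 higher and 3 lower calls of 30 that passed, or 3 and 6 with library-total scaling. NDRG1 was higher (log2 0.55) and the glucose transporter gene SLC2A1 lower (-0.50), and HIF1A (0.05) and LDHA (-0.17) were not called. Interferon and MHC class I genes gave 6 higher and 2 lower of 37, or 4 and 5 with library-total scaling. ISG20, an exonuclease, had 1067, 1153 and 1293 normalised reads in DDC cells, 571, 588 and 557 in SLC6A4 cells and 2540.1, 2717 and 2625 in empty-vector cells (log2 1.03, SE 0.08, limma adjusted p = 4.7e-08). BST2, or tetherin, was lower (log2 -2.41), at 7.27, 0 and 8.91 in DDC cells, 23.2, 24.6 and 18.95 in SLC6A4 cells and 11.3, 22.8 and 32.8 in empty-vector cells, and the difference was -1.36 without DDC replicate 2 and -3.01 without DDC replicate 3. ISG15 (log2 -0.09) was not called.

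Neuroendocrine markers were mostly under the filter. Of 32 listed 9 passed, and CHGA, CHGB, NEUROD1 and INSM1 had at most 1.08 normalised reads in any of the 9 libraries. Of those that passed, 1 was higher and 1 lower in DDC cells (median 0.06), or 0 and 1 with library-total scaling. SCG5, a secretory granule chaperone and the gene called lower, had 31.1, 17.6 and 31.7 normalised reads in DDC cells, 92.9, 98.3 and 112 in SLC6A4 cells and 29.7, 43.4 and 38.8 in empty-vector cells (log2 -1.92, SE 0.21, limma adjusted p = 1.8e-06). The 15 mitochondrial transcripts gave 0 calls by limma and by edgeR, 1 higher by DESeq2 and 0 at an unadjusted limma p under 0.05 (median 0.02). Cytosolic ribosomal protein genes gave 4 higher and 4 lower calls of 79, or 2 and 13 with library-total scaling.

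In the lists where limma called no gene higher, edgeR and DESeq2 called none higher either, apart from the mitochondrial transcript above. An unadjusted limma p under 0.05 gave 0 higher genes for cholesterol synthesis, epithelial adhesion, identity markers, hair keratins, thrombospondins and the kynurenine pathway, 1 for G1/S, 1 for transglutaminases and H3K4 methylation and 2 for YAP targets. For metallothioneins the number lower was 0 by all of these. DESeq2 gave 3 lower and 0 higher calls for fatty acid synthesis and 2 lower and 5 higher for the S100 family. It gave 6 lower for epithelial adhesion, 6 for YAP targets and 5 for identity markers, against 9, 8 and 6 by limma. For ATF4 targets it gave 7 higher, against 10 by limma, and for cholesterol synthesis 14 lower, as limma did.

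**Figure D3:**
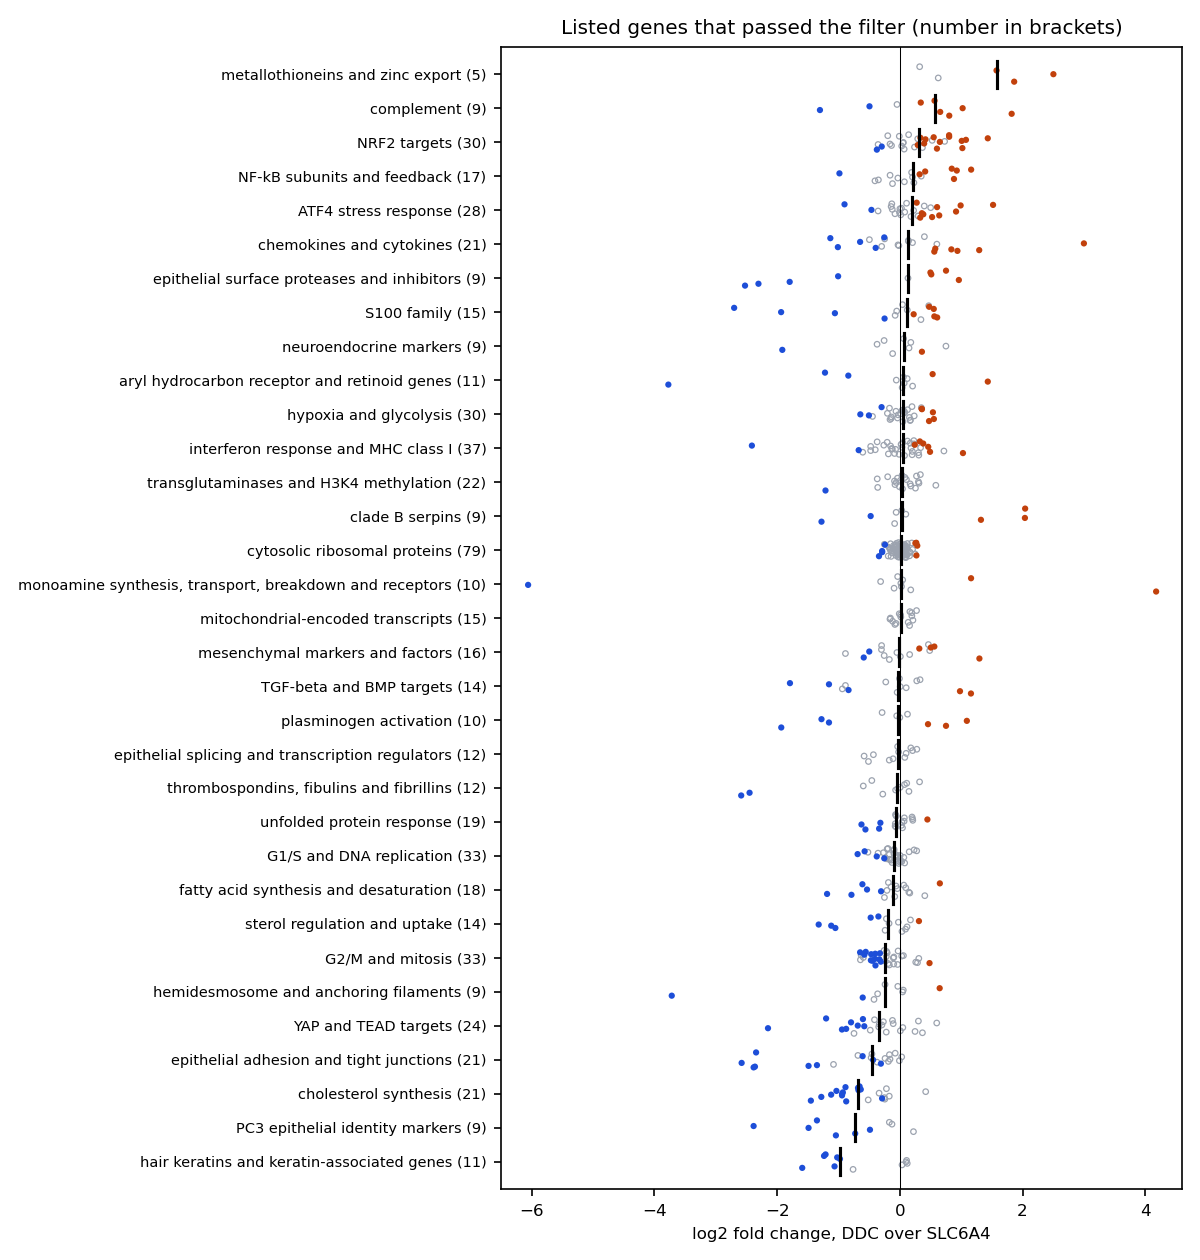
Log2 fold change of DDC over SLC6A4 cells (x axis) of members that passed the filter, by gene list (rows), filled where called, with a black bar at the median. Medians run from -0.98 for hair keratin genes to 1.58 for metallothioneins, with identity markers at -0.73 and cholesterol synthesis at -0.67.

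The position of the empty vector differed among the genes that separated the lines at least 2-fold. Of the 97 that were higher in DDC cells, the empty-vector mean lay above both lines in 40, below both in 9, between them and nearer DDC in 24 and nearer SLC6A4 in 24. Of the 158 lower in DDC cells, it lay above both in 57, below both in 21, nearer DDC in 39 and nearer SLC6A4 in 41. Among all 802 genes called higher, of any fold, these counts were 169, 186, 212 and 235 in the same order. Among all 856 called lower they were 181, 166, 255 and 254. The prostate-associated microseminoprotein gene MSMP (chr9:35752990-35756613) is a case of the empty vector above both, with 41151, 39163 and 53481 normalised reads in DDC cells, 6261, 5778 and 5782 in SLC6A4 cells and 163277, 172875 and 174939 in empty-vector cells (log2 2.90, SE 0.10, limma adjusted p = 1.6e-14). RGP1 on the other strand had nearly the same counts, and the pair cannot be told apart. CIDEC, a lipid droplet gene, had 21.8, 22 and 30.7 in DDC cells, 1.86, 10.01 and 1.99 in SLC6A4 cells and 28.7, 28.2 and 24.1 in empty-vector cells (log2 2.49, SE 0.45, limma adjusted p = 7.0e-04), so that the empty vector and the DDC cells overlapped, and the difference was 3.12 without SLC6A4 replicate 2. TNFRSF9, a receptor of the tumour necrosis factor family, had the empty-vector mean below both, with 39.5, 37.4 and 41.6 in DDC cells, 10.2, 12.7 and 27.9 in SLC6A4 cells and 10.2, 16.3 and 12.1 in empty-vector cells (log2 1.30, SE 0.29, limma adjusted p = 0.0051). MAP7D3, a microtubule-associated protein, was lower in DDC cells with the empty vector below both, at 16.6, 28.6 and 21.8 in DDC cells, 69.7, 80.98 and 79.8 in SLC6A4 cells and 8.19, 14.1 and 12.9 in empty-vector cells (log2 -1.77, SE 0.21, limma adjusted p = 5.6e-06). CST6, the protease inhibitor cystatin E/M, had 1.04, 1.10 and 1.98 in DDC cells, 26.95, 20.9 and 12.97 in SLC6A4 cells and 19.5, 19.5 and 9.49 in empty-vector cells (log2 -3.13, SE 0.45, limma adjusted p = 5.9e-05), and only the DDC cells stood apart. It passed the filter only through its SLC6A4 libraries.

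In 217 genes, 1.67% of those tested, all libraries of the lines lay on opposite sides of all empty-vector libraries. This count took in genes whether or not the lines were called different. TGM2, THBS1, EFEMP1, MT1X, MT1F, ID1, NOG, NFKBIA, SOD2 and RRM2 were among them. CHRNA1, a muscle acetylcholine receptor subunit, had 3.11, 2.20 and 5.94 normalised reads in DDC cells, 24.2, 24.6 and 27.9 in SLC6A4 cells and 9.22, 9.76 and 14.7 in empty-vector cells (log2 -2.56, SE 0.37, limma adjusted p = 6.6e-05). ZNHIT2, a zinc finger protein, had 20.8, 20.9 and 20.8 in DDC cells, 7.44, 7.28 and 3.99 in SLC6A4 cells and 10.2, 14.1 and 15.5 in empty-vector cells (log2 1.63, SE 0.34, limma adjusted p = 0.0024).

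The histone marks were measured by ChIP-seq in the same lines, 3 libraries each, and give another readout at the promoters of these genes. Of 19527 regions tested for H3K4me3Q5ser 7422 (38.0%) were higher and 7573 (38.8%) lower in DDC than in SLC6A4 cells (edgeR, adjusted p under 0.05), 76.8% together. For H3K4me3, 5580 (29.6%) were higher and 5819 (30.9%) lower of 18848, 60.5% together. Of the 12960 genes tested for RNA 10907 had a region within 1000 bp of the start. At these promoters H3K4me3Q5ser was higher in 31.0% and lower in 52.5%, and H3K4me3 higher in 30.6% and lower in 39.7%. The H3K4me3Q5ser libraries held 13.5 to 16.7 M read pairs in regions for DDC cells and 19.96 to 24.8 M for SLC6A4 cells, and the H3K4me3 libraries 3.75 to 4.58 M and 4.74 to 5.81 M. The part of this depth difference in the results was not tested.

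Genes with RNA at least 2-fold lower in DDC cells had lower H3K4me3Q5ser at 65 of 88 promoters (73.9%) and higher at 13 (14.8%), with a median log2 difference of -0.38. Among genes whose RNA was not called the mark was lower at 52.1% and higher at 31.3% of 9547 promoters (median -0.09). Genes with RNA at least 2-fold higher had a higher mark at 18 of 53 promoters (34.0%) and a lower mark at 30 (56.6%), with a median of -0.13. Genes called with RNA under 2-fold higher had H3K4me3Q5ser lower at 58.7% and higher at 27.7% of 622 promoters, and those called under 2-fold lower had it lower at 50.3% and higher at 31.0% of 597. H3K4me3 was lower at 44 of the 88 promoters of 2-fold lower genes (50.0%) and at 26 of the 53 of 2-fold higher genes (49.1%), and it was higher at 23 (26.1%) and 17 (32.1%) of them. Of 9539 promoters of genes not called it was lower at 39.5% and higher at 30.6%. Under 2-fold, H3K4me3 was lower at 50.8% and higher at 22.8% where RNA was higher, and lower at 30.3% and higher at 38.9% where RNA was lower. Across the 141 genes at least 2-fold different, the RNA and H3K4me3Q5ser differences had a Pearson's r of 0.371 and a Spearman's rho of 0.304, and the RNA and H3K4me3 differences 0.0637 and 0.0381. Across 10899 genes r was 0.00572 and rho -0.0591 for H3K4me3Q5ser, and r was -0.0877 and rho -0.133 for H3K4me3. These are descriptions across genes that share their libraries and are not independent replicates. Promoters were counted per gene, so genes that share a region, such as MSMP and RGP1, repeat its values.

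Promoter levels are given in CPM, read pairs scaled to library sizes adjusted by TMM over all libraries of a mark, empty vector included. The log2 differences beside them come from the fit of the DDC and SLC6A4 libraries alone. At ST14 (region chr11:130159798-130161873) H3K4me3Q5ser was 2.32, 1.90 and 2.56 CPM in DDC cells, 8.999, 8.19 and 8.27 in SLC6A4 cells and 9.05, 9.54 and 9.52 in empty-vector cells (log2 -1.91, edgeR adjusted p = 3.9e-24). At LAD1 (chr1:201397318-201400029) it was 6.95, 7.90 and 7.68 CPM in DDC cells, 19.5, 19.1 and 17.98 in SLC6A4 cells and 24.3, 23 and 25.7 in empty-vector cells (log2 -1.33, edgeR adjusted p = 7.0e-28). At NOG (chr17:56592074-56596676) it was 29.2, 29 and 29.8 CPM in DDC cells, 77.2, 75.1 and 78.5 in SLC6A4 cells and 40.9, 42.4 and 43.3 in empty-vector cells (log2 -1.39, edgeR adjusted p = 9.8e-52). In these 3 genes the mark and the RNA were both lower in DDC cells, and at NOG the SLC6A4 cells were highest in both readouts. H3K4me3Q5ser was lower as well at TGM2 (log2 -0.91), THBS1 (-0.72), EFEMP1 (-1.07), KRT7 (-1.09), CDH1 (-0.72) and FASN (-1.24). H3K4me3 was lower at these promoters by smaller amounts, such as -0.89 at ST14, -0.41 at TGM2 and -0.88 at NOG. HEPHL1, a ferroxidase gene whose RNA was higher in DDC cells (log2 1.63), had 18.3, 18.4 and 17.03 CPM in DDC cells, 7.35, 7.96 and 7.44 in SLC6A4 cells and 19.3, 17.4 and 18.9 in empty-vector cells (log2 1.24, edgeR adjusted p = 2.7e-26).

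At other promoters H3K4me3Q5ser did not follow the RNA in direction or size. At MT1X (log2 0.01) and MT2A (0.02) H3K4me3Q5ser was not called different, although the RNA was higher by 2.50 and 1.58 on the log2 scale. MT2A had 57.4, 53.9 and 54.3 CPM in DDC cells, 53.6, 55.3 and 54.8 in SLC6A4 cells and 64.5, 60.1 and 62.7 in empty-vector cells. H3K4me3 at MT1X differed by -0.50. At MT2A H3K4me3 was higher in DDC cells, as the RNA was (log2 0.26, edgeR adjusted p = 2.4e-04). MT1F had a lower H3K4me3Q5ser mark (log2 -0.63). HAGHL, whose RNA was higher (log2 1.40), had 14.4, 14.6 and 16.01 CPM in DDC cells, 28.3, 29.6 and 29.6 in SLC6A4 cells and 14.7, 15.8 and 15.9 in empty-vector cells (log2 -0.96, edgeR adjusted p = 1.8e-27). KMO went the reverse way, with a higher mark (log2 0.62) and lower RNA (-1.28), as did BIRC3 (0.31 for the mark and -0.98 for RNA). EPCAM (0.17 for the mark and -1.49 for RNA) and FSIP1 (0.24 and -2.38) did so too. PLAT, at -1.93 in RNA, differed by -0.17 in H3K4me3Q5ser and 0.01 in H3K4me3. CSF3, CYP1B1 and C1S had no region within 1000 bp of their start.

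**Figure D4:**
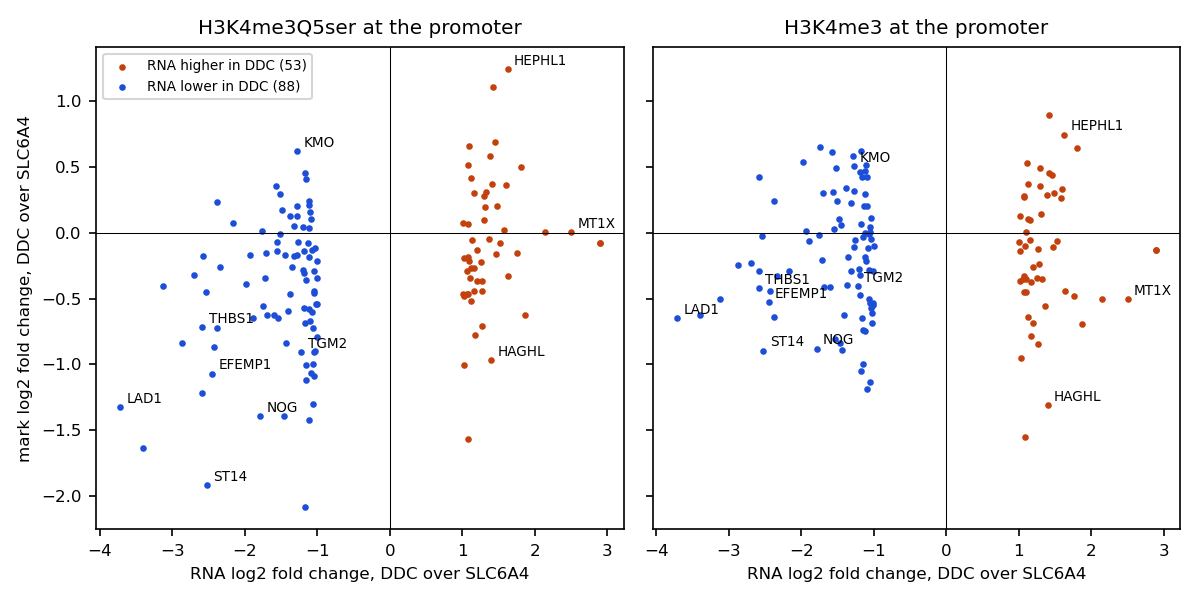
RNA log2 fold change (x axis) and promoter mark log2 fold change (y axis), both DDC over SLC6A4 cells, of genes called and at least 2-fold different in RNA, 53 higher and 88 lower, with H3K4me3Q5ser on the left and H3K4me3 on the right. ST14, LAD1, NOG and EFEMP1 lie low in both readouts and HEPHL1 high in both, while MT1X and HAGHL have higher RNA without a higher mark.

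The RNA difference also varied along chromosomes. In 150 windows of 20 Mb with at least 20 tested genes the median log2 fold change ran from -0.38 to 0.23, with quartiles of -0.11 and 0.05, and 9 windows lay past 0.2 in size. The lowest was chromosome 3 from 160 to 180 Mb, where 19 of 48 genes were lower and 1 was higher, and the median difference from the empty vector was -0.35 in DDC cells and 0.07 in SLC6A4 cells. The window from 180 to 200 Mb had a median of -0.20 with 20 of 106 genes lower and 1 higher. Chromosome 2 as a whole had a median of -0.13, with 127 lower and 21 higher of 839 genes. The highest window was chromosome 12 from 120 to 140 Mb at 0.23, with 24 genes higher, none lower and 80.6% of its genes above 0, and its median lay above the empty vector by 0.40 in DDC cells and 0.17 in SLC6A4 cells. Chromosome 16 from 80 Mb upwards followed at 0.22, with 12 higher and 2 lower of 81 genes. H3K4me3Q5ser at promoters had a median difference of -0.03 in the chromosome 3 window from 160 Mb, of -0.28 in that from 180 Mb, of -0.0050 in the chromosome 12 window and of -0.40 in the chromosome 16 window.

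**Figure D5:**
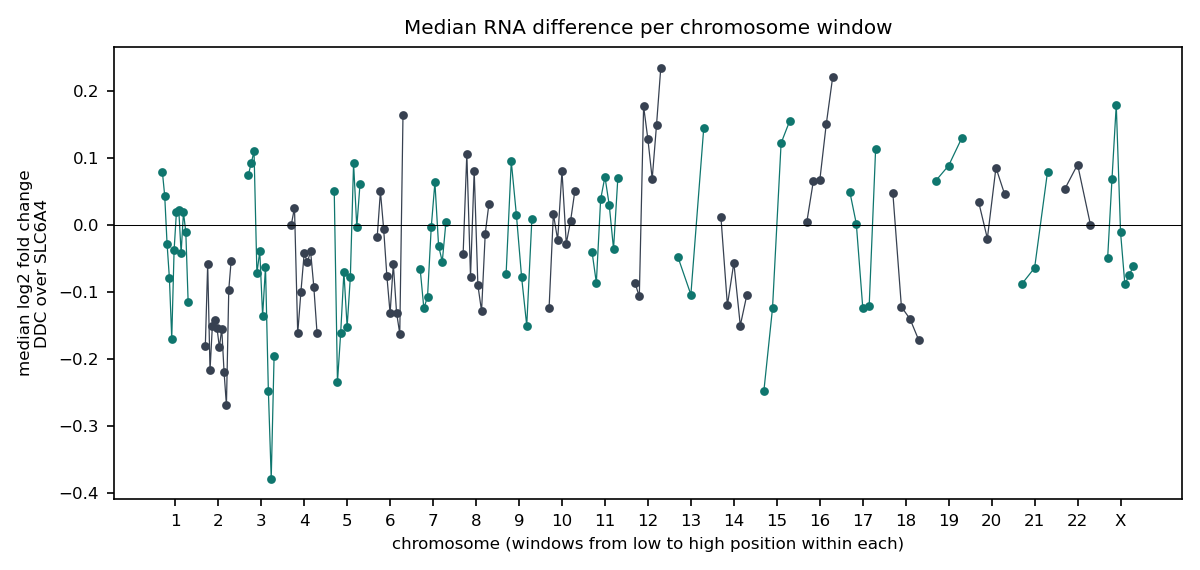
Median log2 fold change of DDC over SLC6A4 cells (y axis) of the genes in each of 150 windows of 20 Mb, in order of position within each chromosome (x axis). A window late on chromosome 3 falls to -0.38, and the last window of chromosome 12 reaches 0.23.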

How the data were processed

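RNA-seq of 3 DDC, 3 SLC6A4 and 3 empty-vector libraries of PC3 cells was used, with ChIP-seq of H3K4me3Q5ser and H3K4me3 in the same lines. Per the submitters' processing notes, reads were aligned with HISAT2 2.1.0 to GRCh38 and analysed with DESeq2. The deposited RNA values are a normalised read signal (counts divided by size factors) in a table per line. The authors' log2 fold changes, test score (the Wald statistic) and p-values in those tables compare each line with the empty vector and were not used. The deposited ChIP values are read-pair counts per region, entered as estimated counts (expected counts) from featureCounts 2.0.3, per the file headers, in which 9.78% of values were not whole, and these were rounded.

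All RNA values (100% in each library, tolerance 1e-06) came out as whole reads. The 2 tables were joined, scaled together by median-ratio size factors and tested with limma 3.58.1 in R 4.3.3 on log2(normalised reads + 1), a pseudocount of 1, with genes kept at 10 normalised reads in 3 of the 6 libraries. A fold change on this scale understates that of low genes. The design named limma for values given as normalised reads and edgeR for values given as counts. edgeR 4.0.16 on the recovered reads was run as an alternative that called 1747 genes, with DESeq2 1.42.0 as another. ChIP regions were tested with edgeR, and a promoter was a region within 1000 bp of a gene's start. Calls are at a Benjamini-Hochberg adjusted p under 0.05 over all genes or regions. Each RNA library held 17.3 to 21.7 M reads in genes, and exact intervals cover counting error only. Of 62703 identifiers 62625 matched GENCODE 44, 20966 genes without a name took 4.65% to 4.98% of reads, and 0 per-sample columns were left unused. Tables and sequence searches used Python 3.11.15. The fits were tested on simulated data.

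Members and the 36 gene lists were chosen with earlier results of these data known. Named genes were DDC, SLC6A4 and TGM2, the 12 with the largest difference each way (called, mean log2 CPM at least 1, no overlap between the lines), the 5 called genes with the smallest adjusted p in each list (fewer where fewer were called), and at most 4 for each position of the empty vector. Members that were not called, and some called members described for their role, were named after their values were seen. No SLC6A4 input for ChIP was analysed here. Some listed genes and 1 list are not reported here.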

Additional observations from a re-analysis of the deposited data

Results flagged for a closer look

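In 23 named genes the DDC and SLC6A4 libraries lay on opposite sides of the empty-vector libraries without overlap, and the difference between the lines was called by limma. Each value below is the log2 fold change of DDC over SLC6A4 cells. DDC cells were above and SLC6A4 cells below the empty vector in MT1X (2.50), MT1F (1.86), ZNHIT2 (1.63), RPAP3-DT (1.42), ID1 (1.16), PRSS3 (0.96), SOD2 (0.93), NFKBIA (0.88), C1R (0.81), FTH1 (0.80), S100A4 (0.56), CDC25B (0.48) and HLA-E (0.38). DDC cells were below and SLC6A4 cells above it in THBS1-AS1 (-2.80), THBS1 (-2.59), CHRNA1 (-2.56), EFEMP1 (-2.45), FSIP1 (-2.38), NOG (-1.79), TGM2 (-1.22), SCD (-1.19), MSMO1 (-1.03) and RRM2 (-0.69). The call of RPAP3-DT was lost when leaving out SLC6A4 replicate 1 (0.051), as adjusted p. The departures of the lines from the empty vector share its libraries and were not tested against each other.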

How the results depend on the processing

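The count of 1658 genes was 1747 with edgeR on the recovered reads (1644 shared with limma), 1283 with DESeq2 (1258 shared), 1647 and 1681 with pseudocounts of 0.5 and 5, 1618 without a filter, 1575 with a minimum of 50, 1674 with TMM scaling and 1766 with all 9 libraries in the fit. All shared calls kept their direction. Library-total scaling gave 1823 (1380 shared), with 525 higher and 1298 lower, and moved the median of all genes by -0.084. The 255 genes at least 2-fold different became 152 with DESeq2 and 114 with a minimum of 50. Leaving out 1 library gave 1035 to 1655 calls, 516 to 749 higher, 518 to 940 lower and 198 to 275 at least 2-fold different. For H3K4me3Q5ser it gave 14394 to 14617 regions (7081 to 7215 higher, 7313 to 7402 lower), and for H3K4me3 10513 to 10720 (5118 to 5223 higher, 5395 to 5529 lower). Deviations from the line mean had correlations of -0.016, -0.014 and -0.015 between same-numbered libraries, which does not settle whether these were paired. A fit with the replicate number as a block gave 1560 calls, 754 higher and 806 lower. Of the 226 named genes, calls were lost by 1 (BUB1) with edgeR, 20 of the 200 with a value in DESeq2, 18 with library-total scaling, 10 with the block and 21 to 51 when 1 library was left out. A pseudocount of 5 brought low genes such as CST6 to -1.95 and S100A14 to -1.85. The cause of these shifts was not tested. The comparison of ChIP input libraries of the lines was not run.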

Other observations

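Genes outside the lists also separated the lines and were chosen after their values were seen. SAA1, an acute-phase serum amyloid gene, had 1601, 1468 and 1919.6 normalised reads in DDC cells, 5919, 5497 and 6349.6 in SLC6A4 cells and 7926, 8429.7 and 8381 in empty-vector cells (log2 -1.84, SE 0.09, limma adjusted p = 8.1e-12). SAA2, a near copy that can share reads with it, differed by -1.49. LCN2, a secreted protein that binds bacterial iron carriers, had 272, 343 and 286 in DDC cells, 1019, 1079 and 1037 in SLC6A4 cells and 4044, 3641 and 3515 in empty-vector cells (log2 -1.80, SE 0.09, limma adjusted p = 2.7e-11). RBP4, which carries retinol, had 283, 369.6 and 367 in DDC cells, 128, 139 and 124 in SLC6A4 cells and 157, 158 and 153 in empty-vector cells (log2 1.37, SE 0.12, limma adjusted p = 8.2e-08). MDK, a heparin-binding growth factor, had 399.7, 471 and 522 in DDC cells, 226, 179 and 172 in SLC6A4 cells and 265, 308 and 233 in empty-vector cells (log2 1.27, SE 0.12, limma adjusted p = 2.4e-07).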
